A study of Homo sapiens with 9 samples.

Results

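ETS factors are transcription factors that bind DNA through a shared ETS domain, which reads a short motif with the core GGAA. Which gene an ETS factor turns on or off depends on the bases around that core, on partners such as RUNX, GATA and C/EBP proteins, and on phosphorylation by RAS and MAP kinase signalling. In blood cells the family holds PU.1, encoded by SPI1 and needed for myeloid differentiation, the stem cell and megakaryocyte factors FLI1 and ERG, and the repressor ETV6, and several members are altered or fused in leukaemia. The 10 ETS genes described here (SPI1, ETS1, ETS2, FLI1, ERG, ELF1, ELF4, ETV6, ELK3 and GABPA) were taken by gene symbol from the 20637 genes of a table of normalised read counts. All 10 were present in the table and all 10 passed the filter on low values, a normalised count of 10 or more in 3 or more of the 9 libraries, which 12569 genes passed.

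The libraries came from HL-60, an established human cell line grown from an acute myeloid leukaemia of promyelocytic type, in 3 groups of 3 biological replicates. HRA cells are an HL-60 line resistant to cytarabine (Ara-C), a nucleoside analogue that stalls DNA replication, and were cultured with 100 nM of the drug. HRD cells are an HL-60 line resistant to daunorubicin (DNR), an anthracycline that poisons topoisomerase II, and were cultured with 30 nM of the drug. Parental HL-60 cells are the sensitive starting line, with no drug named for their culture. Each drug is represented by 1 resistant line that was growing in the drug, so resistance, the drug in the medium and the history of that line cannot be told apart. Polyadenylated RNA was sequenced from whole cultures, in which a change in some cells cannot be told apart from a smaller change in every cell. Libraries held 20822709 to 66563328 reads assigned to genes, and the 10 members had 111 (ERG in HRA cells) to 25029 (ETS1 in HRA cells) reads summed over the 3 libraries of a group. The summed level of 6 promyelocyte markers was 259040 to 288427 in HRA, 210296 to 268439 in HRD and 288495 to 331088 in parental libraries, most of it from MPO, and none of 6 T cell markers passed the filter. The replicate 2 libraries of all groups stood apart on the third principal component, which held 9.07% of the variance, so counts of calls over parental cells are also given without them where they change.

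Promoters of 3 members that changed, and of 2 ETS genes that hold the motif CCGGAAGT, are shown as 250 bases upstream of a start site, from the RefSeq promoter table of build GRCh38.p14. The table gave 16 windows for 7 of the 10 members, and SPI1, ETS1 and FLI1 are named only. Windows of 300 bases, 250 before and 50 after the start, were searched on both strands for CCGGAAGT, a sequence that GABP and ELK proteins favour, and for GAGGAAGT, a sequence that PU.1 favours. No stretch can match both words in the same frame, because they differ in their first bases. CCGGAAGT or its reverse complement ACTTCCGG was found in 4.14% of all 35116 windows, and GAGGAAGT or its reverse complement ACTTCCTC in 2.59%. The first window below, of GABPA at chr21:25734722-25734971 (forward strand), holds CCGGAAGT on the other strand, printed as ACTTCCGG in capitals. ELK4, an ETS gene outside the 10 that was lower in both resistant lines, holds it 22 bases before its start at chr1:205632012-205632261 (reverse strand). The other 3 windows belong to members whose transcript changed and hold neither word: ETS2 at chr21:38804933-38805182 (forward strand), ELF4 at chrX:130111859-130112108 (reverse strand) and ETV6 at chr12:11649424-11649673 (forward strand).
GABPA: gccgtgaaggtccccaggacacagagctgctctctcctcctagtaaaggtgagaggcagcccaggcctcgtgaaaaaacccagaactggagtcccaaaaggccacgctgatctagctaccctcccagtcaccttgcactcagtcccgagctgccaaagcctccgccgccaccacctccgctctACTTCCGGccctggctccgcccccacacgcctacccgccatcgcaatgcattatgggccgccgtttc
ELK4: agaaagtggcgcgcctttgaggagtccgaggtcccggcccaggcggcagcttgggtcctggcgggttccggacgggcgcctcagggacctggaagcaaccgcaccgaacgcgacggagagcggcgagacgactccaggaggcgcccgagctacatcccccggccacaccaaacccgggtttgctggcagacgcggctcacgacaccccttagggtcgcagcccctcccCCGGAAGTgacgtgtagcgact
ETS2: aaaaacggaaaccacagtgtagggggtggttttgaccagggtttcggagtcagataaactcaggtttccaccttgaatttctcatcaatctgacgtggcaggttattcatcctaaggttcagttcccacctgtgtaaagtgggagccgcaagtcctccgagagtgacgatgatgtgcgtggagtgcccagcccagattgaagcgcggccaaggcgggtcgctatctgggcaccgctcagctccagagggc
ELF4: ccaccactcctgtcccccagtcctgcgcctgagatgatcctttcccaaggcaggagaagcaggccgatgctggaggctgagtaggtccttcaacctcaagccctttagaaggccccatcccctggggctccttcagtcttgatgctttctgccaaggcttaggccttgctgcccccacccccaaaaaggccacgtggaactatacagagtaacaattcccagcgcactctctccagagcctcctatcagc
ETV6: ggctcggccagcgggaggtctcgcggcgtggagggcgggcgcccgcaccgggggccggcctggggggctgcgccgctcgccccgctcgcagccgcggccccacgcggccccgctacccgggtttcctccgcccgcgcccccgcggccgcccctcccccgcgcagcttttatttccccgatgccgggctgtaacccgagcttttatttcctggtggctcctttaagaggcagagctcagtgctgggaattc
Second windows of ELK3 and ETS2 hold GAGGAAGT or its reverse complement, 151 bases before and 4 bases after their starts. A match is a description of these letters only, and its absence says nothing of the factor.

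HRA cells carried more transcript of ETS1, ETS2 and SPI1 than parental cells, and HRD cells carried more ELF4 and less ETV6 than parental cells. The ETS1, ETS2 and ELF4 changes were called in all 14 alternative settings, that of SPI1 in only 7 and that of ETV6 in 9. ETS1 showed the widest change among the 10, 2.09-fold higher in HRA than in parental cells, and it was 2.69-fold lower in HRD than in HRA cells. ELF1, ELK3, GABPA and ERG did not pass the test in any of the 3 comparisons. Changes were fitted with limma on log2(value + 1) over all 9 libraries, and a change is called where the p-value, adjusted by Benjamini and Hochberg across the 12569 genes tested, is below 0.05. In HRA over parental cells 3 of 10 members were called, all 3 higher, beside 15.2% of all tested genes called in either direction, 9.13% higher and 6.1% lower. None of the 10 was lower by limma, nor at an unadjusted p below 0.05, where the count was 0, nor by edgeR or DESeq2. For HRD over parental cells 1 member was called higher and 1 lower, beside 22.8% of all genes called, 10.7% higher and 12.0% lower. For HRD over HRA cells 1 was called higher and 3 lower, beside 30.1% of all genes called, 13.9% higher and 16.2% lower. The median log2 fold change of the 10 was 0.23, −0.02 and −0.20 in these 3 comparisons, beside −0.01, 0.01 and 0.00 over all tested genes. The comparisons share libraries, and these shares describe 10 genes only. Without replicate 2 of any group the calls over parental cells were 2 higher in HRA cells, and 1 higher and 0 lower in HRD cells, and those of HRD over HRA cells were 1 higher and 2 lower.

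**Figure D1:**
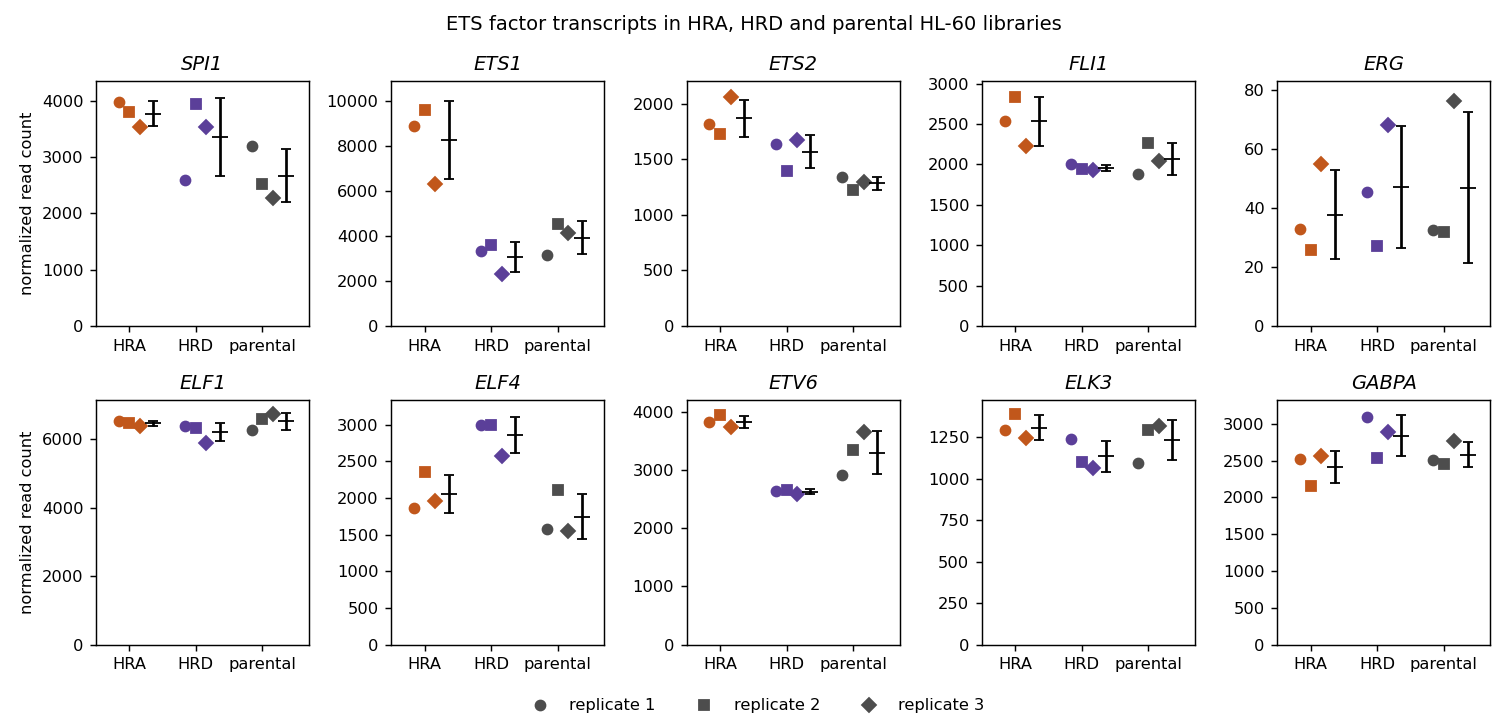
Normalised read count (linear axis from 0) of each of the 10 ETS genes in the 3 HRA, 3 HRD and 3 parental libraries, with marker shape giving the replicate number and the bar giving the mean ± SD of 3. The 3 HRA values of ETS1, 6328 to 9602, lie above all HRD and parental values, and the 3 HRD values of ELF4, 2579 to 3002, lie above all others.

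SPI1 encodes PU.1, which drives granulocyte and monocyte genes and whose dose sets myeloid fate. Its normalised counts were 3972, 3795 and 3531 in HRA replicates 1 to 3, 2593, 3942 and 3529.7 in HRD replicates and 3192, 2526 and 2278 in parental replicates. Every HRA library was above every parental library, whereas HRD replicate 1 lay within the parental range and the other HRD libraries lay above it. SPI1 rose 1.43-fold in HRA over parental cells (log2 fold change 0.51 ± 0.15 SE, limma adjusted p = 0.0453), with a 95% interval of 0.17 to 0.85. That call was lost without HRA replicate 1, 2 or 3 (adjusted p = 0.143, 0.122 and 0.0751 by limma), without parental replicate 2 or 3 (0.111 and 0.143), without replicate 2 of all groups (0.172) and with no filter on low values (0.0611). HRD over parental cells gave a log2 fold change of 0.32 ± 0.15 (limma adjusted p = 0.159), which passed only when HRD replicate 1, the low library, was left out (0.0228). HRD and HRA cells did not differ past the threshold in SPI1, the difference being −0.19 with an interval of −0.52 to 0.15.

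ETS1 and ETS2 are close relatives whose activity is raised when MAP kinases phosphorylate them. ETS1 had 8891, 9602 and 6328 normalised reads in HRA, 3327, 3596 and 2314 in HRD and 3148, 4544 and 4117 in parental libraries. The lowest HRA library lay above the highest library of either other group, and the HRD and parental ranges overlapped. ETS1 rose in HRA over parental cells by a log2 fold change of 1.07 ± 0.20 (a fold of 1.55 to 2.82 at 95%, limma adjusted p = 0.00467). The HRD over HRA difference was −1.43 ± 0.20 (limma adjusted p = 3.96e-04), and the HRD over parental value of −0.36 ± 0.20 did not pass (adjusted p = 0.214, interval −0.79 to 0.07). Both ETS1 calls were made in all 14 alternative settings. The 3 tested genes whose pattern over the 9 libraries was most like that of ETS1, by root mean square difference in log2 units after subtracting each parental mean, were TBL1X (0.193), TRA (0.238) and PEG10 (0.239). TBL1X encodes a subunit of the NCOR corepressor complex, TRA is the T cell receptor alpha locus and PEG10 is an imprinted gene derived from a retrotransposon. Nothing beyond the likeness of these values was examined.

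ETS2 had 1818, 1730.2 and 2057 normalised reads in HRA, 1634, 1398 and 1670.3 in HRD and 1338, 1219.5 and 1295 in parental libraries. All 6 resistant libraries were above all 3 parental libraries, and each HRA library was above each HRD library. ETS2 rose 1.45-fold in HRA over parental cells (log2 fold change 0.54 ± 0.10, interval 0.32 to 0.75, limma adjusted p = 0.00438), a call made in all 14 alternative settings. HRD over parental cells gave 0.28 ± 0.10 with adjusted p = 0.0572 by limma, just outside the threshold. It passed with DESeq2 (adjusted p = 0.0391), and by limma with the replicate number as a block (0.0206) and without HRD replicate 2 (0.0315). The difference of HRD over HRA cells was −0.25 ± 0.10 (limma adjusted p = 0.0701), and it passed with the replicate number as a block (0.0273).

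FLI1 and ERG are close relatives that share many binding sites in blood stem cells, megakaryocytes and endothelium. FLI1 had 2537, 2835 and 2222 normalised reads in HRA, 1999, 1946 and 1927 in HRD and 1876, 2269 and 2047 in parental libraries. HRA replicates 1 and 2 lay above every other library, and HRA replicate 3 lay inside the parental range. FLI1 fell in HRD over HRA cells by a log2 fold change of −0.36 ± 0.10 (limma adjusted p = 0.0197), a call lost without HRA replicate 1 (0.0651), HRA replicate 2 (0.0842), HRD replicate 3 (0.0512) or replicate 2 of all groups (0.149). Its log2 fold change in HRA over parental cells was 0.29 ± 0.10 (limma adjusted p = 0.0743), and it passed with the replicate number as a block (0.0421) or without HRA replicate 3 (0.0438). HRD and parental libraries overlapped (−0.07 ± 0.10, adjusted p = 0.660). ERG was barely expressed, with 32.8, 25.7 and 54.8 normalised reads in HRA, 45.6, 27.1 and 68.4 in HRD and 32.5, 31.9 and 76.4 in parental libraries. Replicate 3 was the highest library of every group for ERG, and all 3 ranges overlapped. Its log2 fold changes over parental cells were −0.25 ± 0.43 in HRA and 0.03 ± 0.43 in HRD cells, with 95% intervals of −1.20 to 0.69 and −0.91 to 0.97, so the fit set only wide bounds on it. Exons of FLI1 overlap exons of SENCR, an antisense gene, and whether counting used strand is not given in the sources used here, so their reads may be mixed.

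ELF1 and ELF4 are ETS factors of the ELF subgroup, ELF4 being known in mice for restraining the proliferation of CD8 T cells. ELF4 had 1869, 2349.8 and 1955 normalised reads in HRA, 3002, 2995 and 2579 in HRD and 1581, 2107 and 1551 in parental libraries. Each HRD library was above each HRA and parental library, and HRA replicate 2 was the only HRA library above the whole parental range. ELF4 rose 1.65-fold in HRD over parental cells (log2 fold change 0.72 ± 0.13, interval 0.44 to 1.01, limma adjusted p = 0.00259), and the call was made in all 14 alternative settings. HRA over parental cells gave 0.24 ± 0.13 (limma adjusted p = 0.227). The difference of HRD over HRA cells, 0.48 ± 0.13 (limma adjusted p = 0.0181), was lost without HRA replicate 1 (0.0782), HRA replicate 3 (0.0620), HRD replicate 1 (0.0546) or HRD replicate 2 (0.0522). ELF1 was level across the study at 6522, 6479.8 and 6388 in HRA, 6392, 6315 and 5901 in HRD and 6261, 6586 and 6743 in parental libraries. Its intervals were the narrowest of the 10, −0.17 to 0.14 in HRA and −0.23 to 0.08 in HRD over parental cells. Exons of ELF1 overlap those of WBP4 on the other strand.

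ETV6 is a transcriptional repressor that recruits corepressors and is required for blood formation in bone marrow. It had 3825, 3951 and 3741 normalised reads in HRA, 2652, 2657 and 2585 in HRD and 2919, 3347 and 3654 in parental libraries. The 3 groups did not overlap, HRA libraries being highest and HRD libraries lowest. ETV6 fell in HRD over HRA cells by −0.54 ± 0.09 (1.46-fold, interval −0.73 to −0.36, limma adjusted p = 9.52e-04), a call made in all 14 alternative settings. It also fell 1.25-fold in HRD over parental cells (−0.32 ± 0.09, limma adjusted p = 0.0195). That call was lost without HRD replicate 3 (0.0539), parental replicate 2 (0.0582), parental replicate 3 (0.0655) or replicate 2 of all groups (0.139), and when only the 2 groups were fitted (0.0584). HRA over parental cells gave 0.22 ± 0.09 (limma adjusted p = 0.107), which passed only without parental replicate 3 (0.0472).

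ELK3 and GABPA, a ternary complex factor that represses until it is phosphorylated and the DNA-binding subunit of GABP, did not pass in any comparison. ELK3 had 1293, 1391 and 1244 normalised reads in HRA, 1243, 1101 and 1063 in HRD and 1093, 1293 and 1316 in parental libraries, with overlap between all groups except HRD and HRA libraries, whose nearest values were 1243 and 1244. GABPA had 2518, 2160.4 and 2565 in HRA, 3096, 2537 and 2886 in HRD and 2507, 2456 and 2771 in parental libraries, all overlapping. The log2 fold change of GABPA in HRD over HRA cells was 0.23 ± 0.10 (limma adjusted p = 0.0967). It passed with the replicate number as a block (0.0337) and without HRD replicate 2 (0.0477). GABPA shares exon positions on opposite strands with ATP5PF, listed in the table as ATP5J. Counting groups without overlap, 4 members in HRA over parental, 3 in HRD over parental and 6 in HRD over HRA cells were separated, beside 38.0%, 35.3% and 47.0% of all tested genes.

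**Figure D2:**
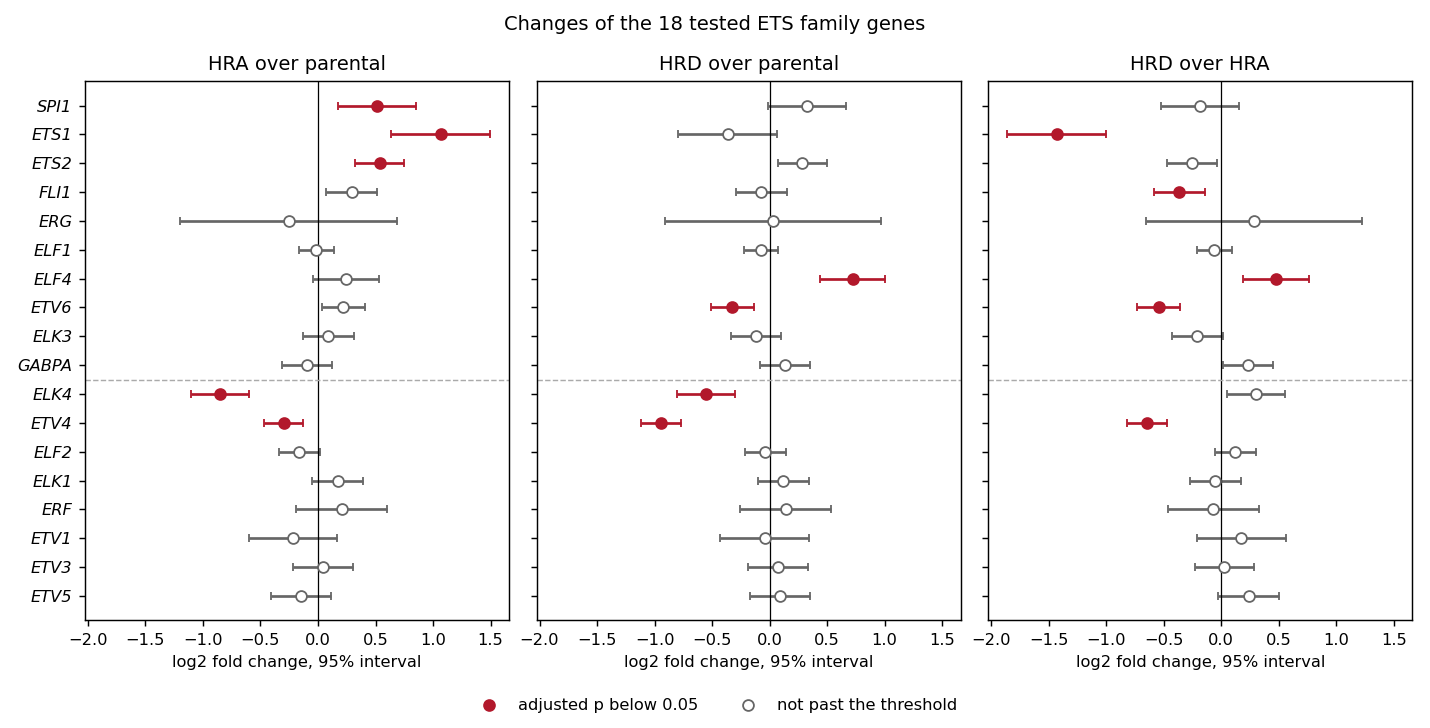
Log2 fold change with its 95% interval for the 18 tested ETS family genes in HRA over parental, HRD over parental and HRD over HRA cells, with the 10 members above the dashed line, 8 further family genes below it, and filled points at an adjusted p below 0.05. ETS1 spans 1.07 in HRA over parental and −1.43 in HRD over HRA cells, and ELK4 and ETV4 lie below 0 in both comparisons with parental cells.

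Of 18 further ETS family genes listed, 14 were in the table and 8 were tested. None of the 8 was higher in either resistant line than in parental cells by limma, at an unadjusted p below 0.05, by edgeR or by DESeq2 (a count of 0 each), and 2 were lower in each line, ELK4 and ETV4. Of all tested genes, 9.13% were higher and 6.1% lower in HRA, and 10.7% higher and 12.0% lower in HRD cells. ELK4, a ternary complex factor like ELK3, had 1625, 1372 and 1758 normalised reads in HRA, 2274, 1749 and 1859 in HRD and 2987, 2776 and 2795 in parental libraries. All resistant libraries were below all parental libraries, and HRA and HRD ranges overlapped. ELK4 fell by −0.85 ± 0.12 in HRA and −0.55 ± 0.12 in HRD over parental cells (limma adjusted p = 9.33e-04 and 0.00604), calls made in all 14 alternative settings. ETV4, a PEA3 group factor, had 1229, 1300.0 and 1221 normalised reads in HRA, 787, 829 and 782 in HRD and 1483, 1594 and 1539 in parental libraries, with no overlap between the 3 groups. It fell 1.92-fold in HRD over parental cells (−0.94 ± 0.08, limma adjusted p = 1.28e-05), and the HRD over HRA difference was −0.64 ± 0.08 (1.82e-04), both called in all 14 alternative settings. In HRA cells ETV4 fell by −0.30 ± 0.08 (limma adjusted p = 0.0262), a call lost without HRA replicate 1, 2 or 3 (0.106, 0.0601 and 0.0880), parental replicate 2 or 3 (0.0915 and 0.0574) or replicate 2 of all groups (0.185). Exons of ELK4 overlap those of MFSD4A and exons of ETV4 those of DHX8 on the other strand.

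To show where each change sits in the genome, the members were set beside the other tested genes of their chromosome and beside 6 tested protein-coding neighbours, 3 on each side in the RefSeq order. ETS1, at 1.07 in HRA over parental cells, lay outside the range of its 6 neighbours (−0.12 to 0.37), and the median of 642 other chromosome 11 genes was 0.17. ETS1 and FLI1 have no coding gene between them. ETV6, at −0.32 in HRD over parental cells, lay near the median of its chromosome 12, −0.28 over 638 other genes, of which 249 were called lower, and within the range of its neighbours (−1.08 to 0.24). ETS2, at 0.28 in HRD cells, lay near the chromosome 21 median of 0.33 over 107 other genes, of which 47 were called higher. In HRA cells ETS2 (0.54) was above both its chromosome's median (0.17) and its highest neighbour (0.19). SPI1 (0.51 in HRA cells) was above its neighbours on chromosome 11, whose range was −0.22 to 0.26. ELF4 (0.72 in HRD cells) was above its neighbours on X, whose range was 0.18 to 0.46. ETV4, at −0.94 in HRD cells, had 6 neighbours with a median of −0.75, 5 of them called lower. ELK4, at −0.85 in HRA cells, had 6 neighbours with a median of −0.56 and a range of −1.41 to 0.62. The part of these chromosome-wide and neighbouring changes in the members' values was not tested.

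**Figure D3:**
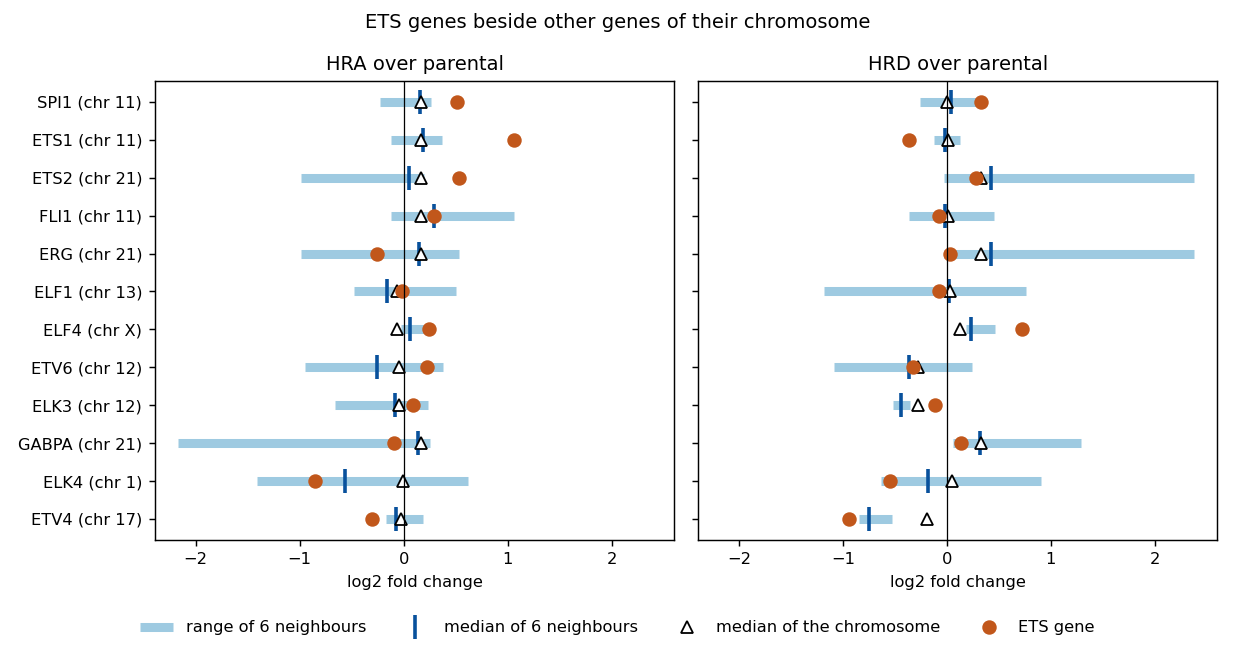
Log2 fold change of each of the 10 members and of ELK4 and ETV4 (filled circles) in HRA over parental and HRD over parental cells, with the range and median of 6 neighbouring genes (bar and tick) and the median of the other tested genes of the chromosome (triangle). Among the called members, ETS1, ETS2 and SPI1 in HRA cells and ELF4 in HRD cells lie beyond their neighbours. ETV6 in HRD cells, at −0.32, lies near its chromosome's median of −0.28.

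Lists of genes that act with or under ETS factors were set beside the members. Of 18 tested partners and coactivators, 2 were higher and 1 lower in HRA over parental cells and 3 were higher and 3 lower in HRD over parental cells, with list medians of 0.05 and −0.02. Over all tested genes 9.13% were higher and 6.1% lower in HRA and 10.7% higher and 12.0% lower in HRD cells, and the HRA counts of this list are near those shares. Of the 17 partners with a normalised count of at least 10 in all parental libraries, 2 were higher in HRD cells. The other partner higher there passed the filter only through its HRD libraries. PAX5, a B cell factor that binds DNA with ETS1, had 704, 768 and 713 normalised reads in HRA, 261, 310.3 and 276 in HRD and 317, 351 and 309 in parental libraries. Every HRA library was above every other library, and PAX5 rose by 1.16 ± 0.11 in HRA over parental cells (limma adjusted p = 1.38e-04) and fell by −1.37 ± 0.11 in HRD over HRA cells (1.17e-05). RUNX1, the runt factor that pairs with ETS1 on DNA, was lower in HRD cells than in parental cells (−0.35 ± 0.08, limma adjusted p = 0.00717), a call lost without replicate 2 of all groups (0.126), and lower than in HRA cells (−0.54 ± 0.08, 4.51e-04). CEBPA, a C/EBP factor that works beside PU.1 in myeloid cells, was 10462, 8965 and 7741 in HRA, 4097, 3865 and 5133 in HRD and 6090.1, 5677 and 5636 in parental libraries. The 3 groups of CEBPA did not overlap, and HRD over HRA cells gave −1.05 ± 0.12 (limma adjusted p = 1.53e-04). GABPB1, the partner subunit of GABPA, had a log2 fold change of −0.30 ± 0.09 in HRA over parental cells (limma adjusted p = 0.0349), which did not pass without any 1 of the 6 libraries (0.0626 to 0.108). Counts over parental cells depended on single libraries: without HRD replicate 2, 1 partner was higher and 1 lower in HRD cells, and without parental replicate 2 or 3, 1 was lower. Without replicate 2 of all groups 1 was higher and 0 lower in HRA cells, and 2 were higher and 0 lower in HRD cells.

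Genes known in myeloid cells to need PU.1 were mostly higher in HRD cells, some of them genes with low counts in parental cells. Of 15 tested, 10 were higher in HRD over parental cells, beside 10.7% of all tested genes, and 0 lower by limma. At an unadjusted p below 0.05, 1 was lower, and by edgeR and DESeq2 0 and 1 were. The list median of 0.82 covers all 15, also NCF1 and those low in parental cells. In HRA over parental cells 4 were higher, beside 9.13% of all tested genes, and 1, NCF4, lower, with a list median of 0.15. NCF4, a cytosolic subunit of the same oxidase as CYBB, gave −0.93 ± 0.27 there (limma adjusted p = 0.0400). That call was lost without HRA replicate 1 (0.123), HRA replicate 3 (0.117), parental replicate 1 (0.0907) or parental replicate 3 (0.117), and with no filter on low values (0.0527). NCF4 was 2.98 ± 0.27 higher in HRD than in HRA cells (limma adjusted p = 2.28e-05). Of the 12 with a normalised count of at least 10 in all parental libraries, 7 were higher in HRD cells, since a gene near 0 in parental cells can pass the filter only where it is high. Without replicate 2 of all groups 8 of 15 were higher in HRD cells. CYBB, the catalytic membrane subunit of the phagocyte NADPH oxidase, had 324, 359.8 and 349.7 normalised reads in HRA, 797, 1068 and 695 in HRD and 84.7, 81.0 and 94.4 in parental libraries. No groups of CYBB overlapped, and it rose 3.94-fold in HRA and 9.60-fold in HRD over parental cells (limma adjusted p = 4.71e-05 and 1.43e-07). LYZ, lysozyme, rose by 1.13 ± 0.09 in HRA and 1.81 ± 0.09 in HRD over parental cells (3.46e-05 and 1.22e-07 by limma). FCGR1A, the high-affinity IgG receptor, rose more in HRA cells, by 2.46 ± 0.22 over parental cells, and was lower in HRD than in HRA cells by −1.64 ± 0.22 (limma adjusted p = 3.63e-04). NCF1 reads can be shared with near-identical pseudogene copies, so its value of 3.60 ± 0.46 in HRD cells is uncertain.

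The RAS and MAP kinase pathway, which phosphorylates ETS1, ETS2 and ELK proteins, had 17 tested genes, of which 1 was higher and 3 were lower in HRA over parental cells and 3 were higher and 1 lower in HRD over parental cells, with list medians of −0.14 and 0.05. Beside them stand 9.13% higher and 6.1% lower of all tested genes in HRA and 10.7% higher and 12.0% lower in HRD cells. With the replicate number as a block, 2 of the 17 were higher in HRA cells, and without replicate 2 of all groups 2 were higher in HRD cells. SPRY4, an inhibitor of this pathway, had 3.49, 4.06 and 3.65 normalised reads in HRA, 110.1, 131 and 107 in HRD and 7.86, 11 and 19.5 in parental libraries. The HRD libraries were far above all others, and SPRY4 rose by 3.17 ± 0.34 in HRD over parental and 4.62 ± 0.34 over HRA cells (limma adjusted p = 8.69e-05 and 4.89e-06). SPRY4 passed the filter only through its HRD libraries, and its HRA values rest on few reads, 4.06 and 3.65 being 3 reads each. It was also 1 of the 3 pathway genes lower in HRA over parental cells (−1.46), so that call rests on few reads too. Of the 16 pathway genes with a normalised count of at least 10 in all parental libraries, 2 were higher in HRD over parental cells. DUSP4, a MAP kinase phosphatase, rose by 1.17 ± 0.20 in HRD over parental cells (limma adjusted p = 0.00184). SPRED1, an inhibitor of RAS signalling, fell by −0.54 ± 0.11 in HRA over parental cells (limma adjusted p = 0.00626), a call lost without replicate 2 of all groups (0.0692), where 0 of the 17 were lower in HRA cells. Without HRA replicate 1, 1 of the 17 was lower in HRA cells. DUSP4 was also the gene that was higher in HRA over parental cells (0.79 ± 0.20, limma adjusted p = 0.0225), a call lost without HRA replicate 1 (0.0840), HRA replicate 2 (0.0930), parental replicate 1 (0.0677) or parental replicate 3 (0.0611).

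Immediate-early genes that serum response factor and ELK proteins switch on had 12 tested members, of which 2 were higher and 0 lower in HRA over parental cells and 5 were higher and 0 lower in HRD over parental cells, with list medians of 0.30 and 0.76, beside 9.13% and 10.7% of all tested genes higher. Of the 9 with a normalised count of at least 10 in all parental libraries, 1 was higher in HRA and 4 were higher in HRD cells. A gene low in parental cells can pass the filter only where it is high. Without replicate 2 of all groups 1 of the 12 was higher in HRA and 3 were higher in HRD cells. No gene of this list was lower at an unadjusted p below 0.05 or by edgeR or DESeq2, a count of 0 in either comparison. Without parental replicate 1, 1 of 12 was higher in HRD cells, and without HRD replicate 2, 2 were. In HRA cells 0 were higher without any 1 of the 3 HRA libraries, and 1 without any 1 of the 3 parental libraries. IER3, a stress-response gene, rose by 3.17 ± 0.54 in HRD over parental cells (limma adjusted p = 0.00184), with 39.1, 51.4 and 23.1 normalised reads in HRA, 222, 499 and 169 in HRD and 14.0, 67.5 and 24.0 in parental libraries. Only HRD libraries stood apart from the rest for IER3. Genes of mitochondrial function and cell cycle that GABP regulates had 8 tested members, of which 1 was lower in each line, TFB2M in HRA and TFAM in HRD cells, both of which encode mitochondrial transcription factors. Beside them 6.1% and 12.0% of all tested genes were lower, and without replicate 2 of all groups the count was 0 in each line. TFB2M had −0.31 ± 0.09 (limma adjusted p = 0.0477), a call lost without any 1 of the 3 HRA libraries or of parental replicates 1 and 3 (0.0681 to 0.192). It was also lost with no filter on low values (0.0691), with TMM rescaling (0.0525) and with only the 2 groups fitted (0.0583). TFAM had −0.29 ± 0.08 (limma adjusted p = 0.0263), a call lost without HRD replicate 2 (0.0900) or 3 (0.0712) or parental replicate 1 (0.0637) or 3 (0.0810). The TFAM call was also lost with only the 2 groups fitted (0.0637). Only 3 of 14 listed targets of FLI1 and ERG passed the filter, of which 1 was higher in HRA and 2 were higher in HRD over parental cells. Beside them 9.13% and 10.7% of all tested genes were higher. Of the 2 with a normalised count of at least 10 in all parental libraries, 1 was higher in each line. Among the 3, the HRD count was 1 without any 1 of the 3 HRD libraries or parental replicates 1 and 3, and without replicate 2 of all groups. PECAM1, an adhesion receptor of endothelium and leukocytes and the gene higher in both lines, had 175, 281 and 157 normalised reads in HRA, 181, 241 and 174 in HRD and 33.1, 30.7 and 64.4 in parental libraries, and rose by 2.26 ± 0.30 in each line over parental cells (limma adjusted p = 8.65e-04 and 3.77e-04). Corepressors and modifiers bound by ETV6 had 7 tested members. In HRA over parental cells 0 were called by limma and 0 by edgeR, beside 9.13% higher and 6.1% lower of all tested genes by limma. At an unadjusted p below 0.05, 3 were lower, and 1 was lower by DESeq2. The shares of all tested genes for these last 2 counts are not given here. With the replicate number as a block 1 was lower by limma, as it was with only the 2 groups fitted or without parental replicate 3. In HRD over parental cells 1 was higher and 1 lower, beside 10.7% and 12.0% of all tested genes. Without replicate 2 of all groups both counts were 0. The higher gene was HDAC3, a histone deacetylase, at 0.29 ± 0.09 (limma adjusted p = 0.0415). HDAC3 lay outside the threshold in 8 of the 14 alternatives. These included leaving out any 1 of HRD replicates 1 and 2 and the 3 parental libraries (0.0509 to 0.130), or replicate 2 of all groups (0.171).

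**Figure D4:**
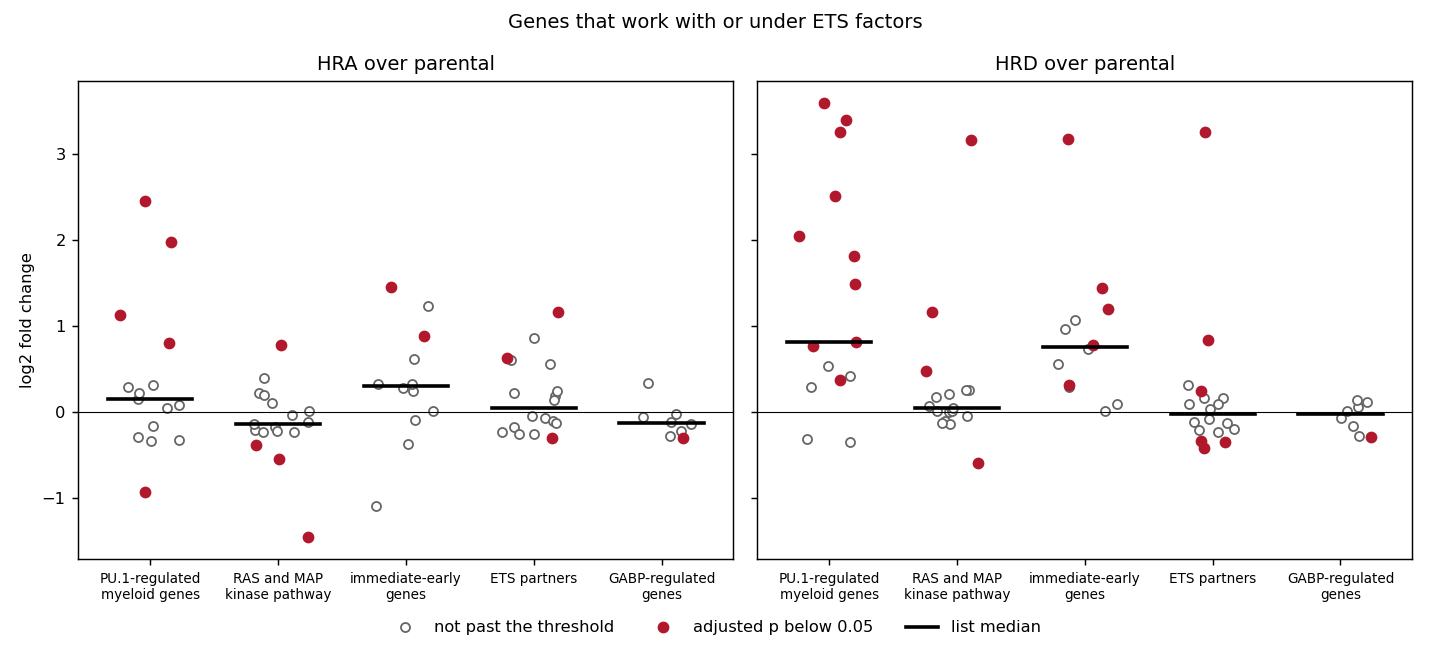
Log2 fold change of each tested gene of 5 lists in HRA over parental and HRD over parental cells, with filled points at an adjusted p below 0.05, lines at list medians and a random horizontal shift for legibility. PU.1-regulated myeloid genes have a median of 0.82 in HRD and 0.15 in HRA cells, while the GABP-regulated genes stay between −0.31 and 0.34 in both. Medians cover all tested genes of a list, also those low in parental cells, which can pass the filter only where they are high. Of the 15 tested PU.1-regulated genes, 12 had a normalised count of at least 10 in all parental libraries.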

How the data were processed

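Polyadenylated RNA of 3 HRA, 3 HRD and 3 parental HL-60 cultures was sequenced from stranded libraries, per the labels' protocols. Build hg19 stands in the submitters' processing notes, which list HTSeq 0.11.1 and DESeq2 beside TopHat2 2.1.1, Cufflinks 2.2.1, Bowtie2 2.3.5.1 and Picard, without roles or order. The annotation, and whether counting used strand, are not given in the sources used here. The table deposited by the authors holds a signal per gene, a read count scaled by the library's size factor, so levels are not per length and are not compared between genes. Whole reads were recovered, 100% of values being whole within a tolerance of 0.001.

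The 10 ETS members and the gene lists were chosen with earlier results of these data known. A gene was tested where 3 or more of the 9 libraries had a value of 10 or more. The test was that of limma 3.58.1 under R 4.3.3, on log2(value + 1), with a variance trend and every library in 1 fit. This scale understates changes of low genes. A ± beside a log2 fold change is its standard error, and p-values are Benjamini-Hochberg adjusted over all tested genes. An exact permutation of 3 against 3 libraries cannot go below p = 0.1. Labels call the replicates biological, and counting error is only part of their spread. Alternatives were a pseudocount of 5, no filter, TMM rescaling, edgeR 4.0.16 and DESeq2 1.42.0 on recovered reads, a fit of only the 2 groups, a replicate block, leaving out each library and, added after the data were seen, leaving out replicate 2 of all groups. They give 14 settings per comparison.

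Deviations of same-numbered HRA and parental libraries from their group means correlated at 0.22, 0.38 and 0.14, which was taken as pairing. The main fit held only the group, so its p-values leave this pairing out. The blocked value therefore stands beside FLI1, the named gene whose call it changes in HRA over parental cells. It also stands beside the 2 list counts of that comparison that it moves by over 1.5 times. From other lists at most 4 genes per list and comparison are named, those called with the largest change and a mean of at least 50, and members are always named. A few others are given as values beside them. Some named genes of these lists are not reported here. Chromosomes and neighbours come from the RefSeq table of GRCh38.p14 (12306 of 12569 tested genes matched), and exon overlaps from GENCODE. Figures used matplotlib 3.10.9. The fit was tested on simulated data.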

Additional observations from a re-analysis of the deposited data

Results flagged for a closer look

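The changes of HRA and HRD cells over their shared parental libraries differed past the threshold for 4 of the 10 ETS genes, tested as HRD over HRA cells with limma. Beside them, 30.1% of all tested genes were called in that comparison. The change in HRD minus that in HRA cells was −1.43 for ETS1, −0.36 for FLI1, 0.48 for ELF4 and −0.54 for ETV6 on the log2 scale. The ETS1 and ETV6 differences were called in all 14 alternative settings. FLI1 was lost without HRA replicate 1 (limma adjusted p = 0.0651), HRA replicate 2 (0.0842), HRD replicate 3 (0.0512) or replicate 2 of all groups (0.149). ELF4 was lost without HRA replicate 1 (0.0782) or 3 (0.0620) or HRD replicate 1 (0.0546) or 2 (0.0522).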

How the results depend on the processing

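In HRA over parental cells 3 ETS members were higher, and 2 to 3 were with 1 library left out. In HRD over parental cells 1 was higher, against 2 with DESeq2 and with the replicate block, and 1 to 2 with 1 library left out. Its 1 lower member became 0 with only the 2 groups fitted and without replicate 2 of all groups, and 0 to 1 with 1 library left out. In HRD over HRA cells 1 was higher, against 2 with the replicate block and 0 to 1 with 1 library left out, and 2 to 3 were lower. The replicate block gave 4 higher members in HRA cells. Same-numbered HRD libraries correlated with parental ones at −0.08, 0.26 and 0.29 and with HRA ones at −0.03, 0.41 and 0.23. Replicate 1 was thus slightly negative, while replicates 2 and 3 were positive, so pairing of the HRD libraries is left unsettled. Under the block ETS2 passed in HRD over parental (limma adjusted p = 0.0206) and HRD over HRA cells (0.0273), and GABPA in HRD over HRA cells (0.0337). Signs of uncalled members reversed with 1 library left out for ERG, whose log2 fold change ran from −0.55 to 0.15 in HRA over parental, −0.28 to 0.44 in HRD over parental and −0.029 to 0.62 in HRD over HRA cells, and for ELF1 in HRA over parental cells (−0.044 to 0.0093). FLI1 in HRD over parental cells reversed without replicate 2 of all groups (0.0019). The cause was not tested. Over the named genes, 1030 values kept their direction and side of the threshold, 129 lost their call, 10 gained one and 7 changed sign. TMM moved the median by at most 0.01 log2. Few reads limit ERG.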
